A study of Homo sapiens with 6 samples.

Results

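The MYC, MAX and MXD network is a set of 10 genes that encode transcription factors of the basic helix-loop-helix leucine zipper class: MYC, MYCN, MYCL, MAX, MXI1, MXD1, MXD3, MXD4, MNT and MLX. They were found by their symbols in the deposited count files, where all 10 were among the 44591 genes listed, and 9 of them were among the 16222 genes that passed the filter on low counts. Only MYCN did not pass it. Transcripts with poly(A) tails were sequenced from A2780, a human ovarian cancer cell line labelled as wild type. The cells were kept in DMEM with serum, and 3 libraries came from untreated cells and 3 from cells given human recombinant CRMP2 (r-CRMP2) at 40 ng/ml for 48 h. CRMP2 is a microtubule-associated protein that the study describes as secreted by cancer-associated fibroblasts, and the comparison asks what the added protein does to the transcripts of the cancer cells. All libraries came from 1 cell line, so the p-values below measure the spread between these libraries only, and nothing in the labels says whether the replicates were grown separately.

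In this network MYC, MYCN and MYCL activate transcription when each is paired with MAX, and the pairs bind the E-box, a DNA element with the letters CACGTG. MXD1, MXI1, MXD3, MXD4 and MNT also pair with MAX and bind the same element, but they bring SIN3 corepressor complexes with histone deacetylases, so that MAX serves as the shared partner of activators and repressors. MLX is the counterpart of MAX in a parallel branch that joins the glucose-sensing factors MLXIP (MondoA) and MLXIPL (ChREBP), and it can also pair with MXD1, MXD4 and MNT. MYC drives ribosome production, nucleotide synthesis and cell growth in many cancers, while MXD genes are typically linked to cells that leave the cycle. MXI1 is also known as a target of the hypoxia-inducible factor HIF-1.

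The promoters of the members that moved most are shown because the proteins of the network bind the E-box and HIF-1 binds a core with the letters ACGTG. RefSeq windows of 300 bases (GRCh38.p14), which end 50 bases after a transcription start, were matched by symbol for 9 of the 10 members, with 12 windows in all and no entry for MYC. Both motifs were searched on both strands, and every E-box also holds the ACGTG core. The E-box was found in 3 of the 12 windows, those of MXD4, MNT and MLX, against 7.26% of all 35116 windows. The ACGTG core was found in 5 of the 12, in MAX and MXI1 besides those 3, against 21.4% of all windows. MXD1, the member with the largest rise, had neither motif in its window, and of 3 windows of MXI1 only 1 had the core. The windows below belong to the second start of MXI1 (chr10:110209981-110210280, plus strand), to MXD1 (chr2:69914859-69915158, plus strand) and to MXD4 (chr4:2262060-2262359, minus strand), with capitals for the ACGTG core of MXI1, which begins 113 bases before the start on the other strand, and for the E-box of MXD4, which begins 238 bases before the start. The MXI1 window printed is the only 1 of its 3 with the core, and which start these cells use was not tested. These matches are a description of the letters and not of binding.
MXI1: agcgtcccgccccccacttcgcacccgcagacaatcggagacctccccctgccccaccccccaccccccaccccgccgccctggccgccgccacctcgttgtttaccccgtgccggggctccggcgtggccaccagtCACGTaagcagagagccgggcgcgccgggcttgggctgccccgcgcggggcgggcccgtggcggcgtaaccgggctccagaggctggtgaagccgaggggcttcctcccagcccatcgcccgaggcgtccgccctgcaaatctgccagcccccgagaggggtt
MXD1: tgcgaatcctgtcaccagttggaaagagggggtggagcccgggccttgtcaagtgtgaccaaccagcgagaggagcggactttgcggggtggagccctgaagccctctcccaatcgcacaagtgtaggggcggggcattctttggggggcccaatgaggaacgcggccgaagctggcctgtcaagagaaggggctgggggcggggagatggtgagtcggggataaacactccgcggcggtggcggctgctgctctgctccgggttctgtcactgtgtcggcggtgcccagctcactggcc
MXD4: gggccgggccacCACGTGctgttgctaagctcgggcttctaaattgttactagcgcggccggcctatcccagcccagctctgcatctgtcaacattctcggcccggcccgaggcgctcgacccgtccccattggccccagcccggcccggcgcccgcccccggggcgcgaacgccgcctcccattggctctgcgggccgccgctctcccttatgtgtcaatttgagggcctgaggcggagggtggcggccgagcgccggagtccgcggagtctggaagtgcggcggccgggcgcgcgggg

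Between 21888530 and 25711353 reads were counted per library. Counts were scaled to CPM (counts scaled to a common library total) on library totals corrected by TMM, a method that assumes most genes do not change, and the factors lay between 1.10 and 1.12 in the untreated libraries and between 0.88 and 0.92 in the r-CRMP2 libraries. This correction shifted every fold change: over all genes tested its median was -0.03 on the log2 scale, and -0.34 when libraries were scaled by their totals only, and genes that were higher made up 48.4% of the calls with TMM and 20.4% with library size alone. The epithelial keratins KRT8 and KRT18 were high in every library, between 1249 and 1329 CPM and between 1218 and 1494 CPM. The ovarian marker PAX8 was low, between 3.08 and 4.40 CPM, and WT1 and CDH1 did not exceed 0.108 and 0.180 CPM. EPCAM and KRT19 did not exceed 6.27 and 1.97 CPM, and MUC16 was between 27.85 and 50.37 CPM. With r-CRMP2, KRT18 was higher (log2 fold change 0.198, adjusted p = 0.01105 from edgeR) and MUC16 lower (-0.36, adjusted p = 0.01331). PAX8, EPCAM, KRT8 and KRT19 did not pass the adjusted p-value threshold of 0.05, and WT1 and CDH1 were too low to be tested. Of 8 fibroblast markers, COL1A1 reached 458 CPM, and their sum was between 536 and 600 CPM in untreated and between 466 and 482 CPM in r-CRMP2 libraries. The lower sum came from COL1A1 (log2 fold change -0.41), and PDGFRB was lower too (-0.41), whereas COL1A2 (0.35), LUM (0.53), PDGFRA (0.46) and THY1 (0.17) were higher, all past the adjusted p-value threshold of 0.05 in edgeR. DCN did not pass, and FAP was too low to be tested. The sum of 5 immune markers was higher with r-CRMP2 (73.6 to 80.4 against 23.7 to 28.1 CPM), nearly all of it from CD68, while the pan-leukocyte marker PTPRC did not exceed 0.202 CPM. The sum of 4 endothelial markers fell from between 6.48 and 7.06 CPM to between 1.82 and 2.35 CPM. Most of this fall came from CDH5 (log2 fold change -1.96, adjusted p = 8.48e-08 from edgeR). PECAM1 and VWF did not pass, and KDR was too low to be tested. The samples are described as 1 cell line, so these markers are read as its own transcripts and not as amounts of other cell types. The part of these shifts in the results below was not tested.

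Of the 9 members tested, 5 were higher with r-CRMP2 (MXD1, MXI1, MYC, MLX and MXD3), 2 were lower (MXD4 and MYCL), and MAX and MNT did not pass the adjusted p-value threshold of 0.05 (edgeR's quasi-likelihood test, Benjamini-Hochberg adjustment). Across all genes tested, 28.2% were higher and 30.1% lower by the same rule, so a call by itself was common in this comparison. With a log2 fold change beyond 1 as well, 2 members rose (MXD1 and MXI1) against 5.12% of all genes. In the other direction the count was 0 of 9 with edgeR, also at an unadjusted p under 0.05, and 0 with DESeq2, against 8.86% of all genes. The repressor genes thus held both the largest rises and the largest fall of the network. The rises of MLX and MXD3 depended on the scaling, as given with their values.

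**Figure D1:**
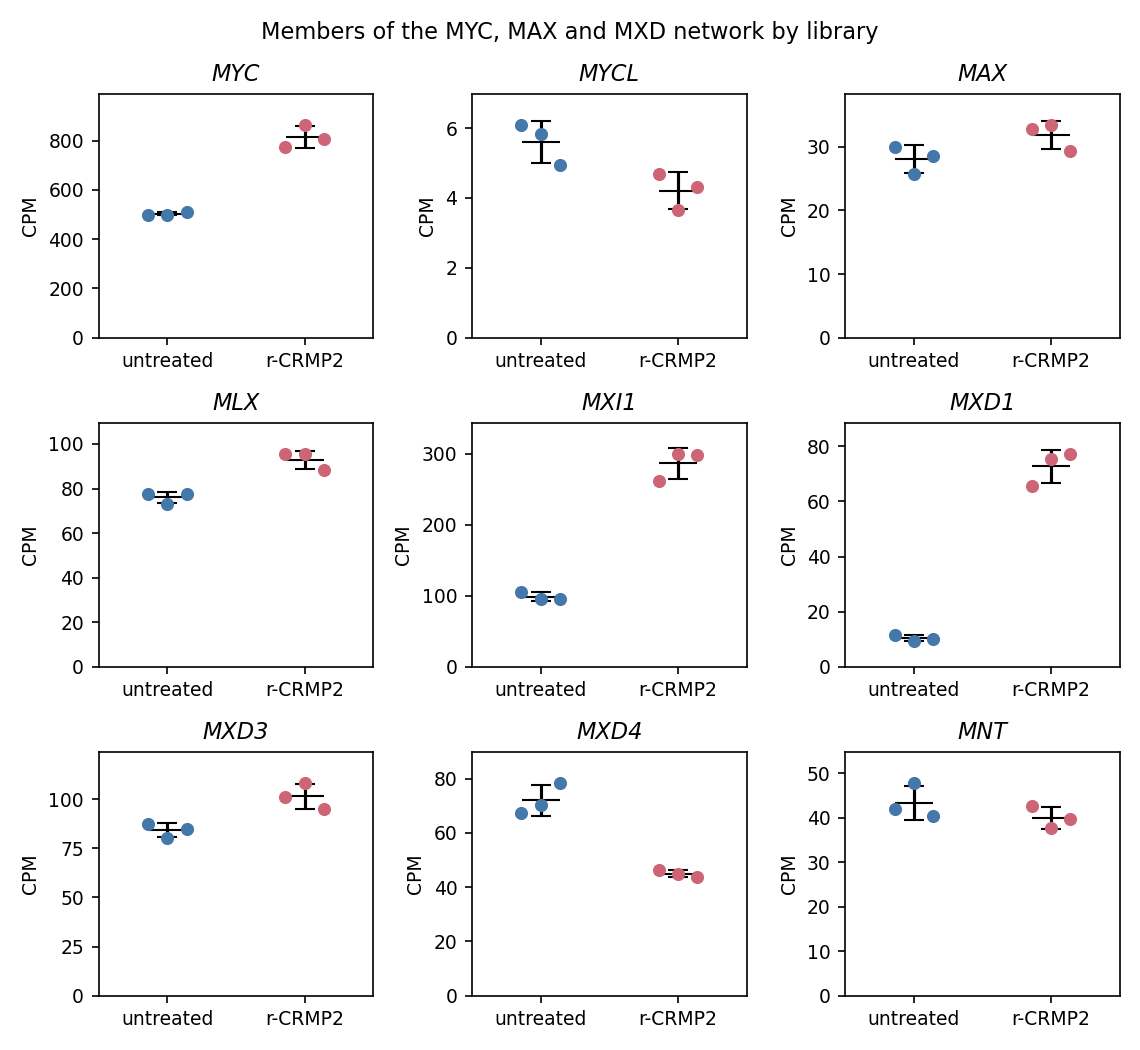
CPM of each tested member (TMM-scaled, linear axes from 0) in the 3 untreated and 3 r-CRMP2 libraries; points are libraries, and bars give the mean and SD of each group. MXD1 rises from about 10.4 to 72.7 CPM and MXI1 from 98.7 to 286 CPM with no overlap, whereas the groups overlap for MAX and MNT.

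MXD1 encodes the founding MXD repressor, known for its induction when cells differentiate. Its transcript (chromosome 2, 70142173 to 70170077 in the deposited hg19 coordinates, plus strand) was at 11.5, 9.50 and 10.2 CPM in untreated replicates 1, 2 and 3 and at 65.8, 75.3 and 77.1 CPM in r-CRMP2 replicates 1, 2 and 3. Every r-CRMP2 library was far above every untreated library. The group means were 10.4 ± 1.005 and 72.7 ± 6.10 CPM (SD, n = 3 in each group), a ratio of 7.01. The log2 fold change of r-CRMP2 over untreated was 2.81 with a standard error of 0.11 (edgeR, adjusted p = 3.83e-14), and it stayed between 2.50 and 2.89 over 13 alternative fits.

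MXI1 encodes a repressor of the same family, also called MXD2. Its transcript (chromosome 10, 111967363 to 112047123, plus strand) was at 105.7, 95.4 and 94.8 CPM in the untreated libraries and at 261.6, 299 and 298 CPM in the r-CRMP2 libraries. The groups were well apart, with 98.7 ± 6.14 against 286 ± 21.4 CPM (SD, n = 3 in each group). The log2 fold change of r-CRMP2 over untreated was 1.54 with a standard error of 0.08 (edgeR, adjusted p = 2.01e-12) and lay between 1.23 and 1.61 over the alternatives. An antisense gene, ENSG00000228417.1, shares 742 bases with the 5′ part of the MXI1 interval, and its mean of 15.3 counts per library stood against 4372 for MXI1. This antisense gene was higher with r-CRMP2 as well (log2 fold change 1.97, adjusted p = 0.00098 from edgeR). The library kit is not described as stranded, so reads of such pairs cannot be told apart.

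MXD4, another SIN3-binding repressor, moved the other way. It (chromosome 4, 2249160 to 2263739, minus strand) was at 67.5, 70.3 and 78.3 CPM in the untreated libraries and at 46.3, 45.04 and 43.6 CPM in the r-CRMP2 libraries. All treated libraries were below all untreated libraries, and the means were 72.0 ± 5.59 and 44.97 ± 1.31 CPM (SD, n = 3 in each group). The log2 fold change of r-CRMP2 over untreated was -0.68 with a standard error of 0.07 (edgeR, adjusted p = 1.41e-07), with a range of -0.99 to -0.61 over the alternatives.

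MXD3 and MNT, the remaining repressors, differed by small amounts. MXD3 (chromosome 5, 176732501 to 176739292, minus strand), a family member linked to proliferating cells, was at 87.6, 80.3 and 85.1 CPM in the untreated and at 101, 108 and 95.1 CPM in the r-CRMP2 libraries. Its log2 fold change was 0.27 with TMM (adjusted p = 0.00206 from edgeR), but -0.05 with library size alone (adjusted p = 0.556), so its direction rested on the scaling. The deposited interval of MXD3 shares 1460 bases with PRELID1 on the opposite strand. PRELID1 had a mean of 3394 counts per library against 2202 for MXD3, and a log2 fold change of -0.06 (edgeR, adjusted p = 0.472). Part of the MXD3 reads is thus uncertain. MNT (chromosome 17, 2287354 to 2304258, minus strand), the broadly expressed antagonist of MYC, was at 41.9, 47.7 and 40.4 CPM in the untreated and at 42.6, 37.7 and 39.6 CPM in the r-CRMP2 libraries. The MNT groups overlapped. Its log2 fold change of r-CRMP2 over untreated was -0.11 with a standard error of 0.09 (edgeR, adjusted p = 0.227), and it passed the threshold with library size alone (-0.42, adjusted p = 0.00035). The antisense gene ENSG00000262456.1 shares 1818 bases with MNT, with a mean of 129.5 counts per library against 1001 for MNT. That gene had a log2 fold change of -0.25 (edgeR, adjusted p = 0.172), and part of the MNT reads is uncertain.

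**Figure D2:**
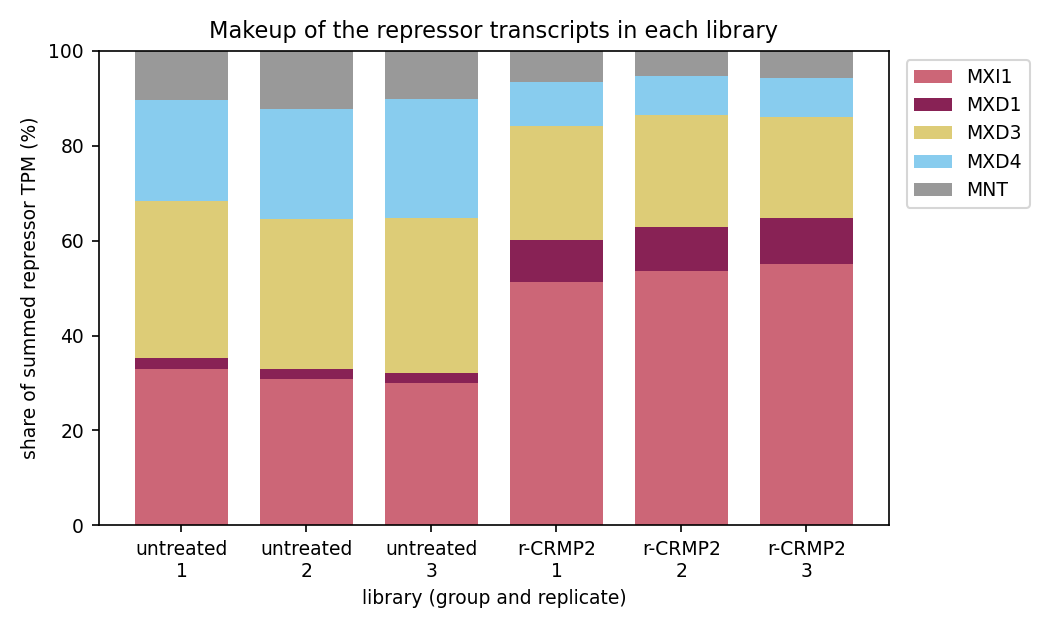
Share of each repressor gene in the summed TPM of MXD1, MXI1, MXD3, MXD4 and MNT (stacked bars, percent) in each of the 6 libraries. The MXI1 share is between 30.0% and 32.9% in the untreated and between 51.3% and 55.0% in the r-CRMP2 libraries, while the MXD4 share is smaller in each r-CRMP2 library.

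The makeup of the repressor transcripts was compared within each library, where the scaling between libraries plays no part. TPM values, which divide counts by the deposited gene length, were used for this, with no test because the sum is over chosen genes. MXI1 held 31.3 ± 1.49% of the summed repressor TPM in untreated and 53.3 ± 1.88% in r-CRMP2 libraries (SD, n = 3 in each group). MXD1 went from 2.24 ± 0.172% to 9.25 ± 0.454%. The shares of MXD3 (32.4 ± 0.755% to 23.0 ± 1.48%), MXD4 (23.2 ± 1.90% to 8.54 ± 0.591%) and MNT (10.9 ± 1.18% to 5.92 ± 0.636%) were smaller with r-CRMP2. In untreated cells MXD3 and MXI1 were about equal parts of this pool, and with r-CRMP2 MXI1 alone was the larger part of it. The uncertain part of the MXD3, MNT and MXI1 reads enters these shares.

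MYC was by far the most abundant member in both groups. Its transcript (chromosome 8, 128748315 to 128753680, plus strand) was at 499.8, 498 and 510.7 CPM in the untreated libraries and at 772, 862 and 807 CPM in the r-CRMP2 libraries. The means were 503 ± 6.83 and 814 ± 45.1 CPM (SD, n = 3 in each group), without overlap. The log2 fold change of r-CRMP2 over untreated was 0.69 with a standard error of 0.05 (edgeR, adjusted p = 1.83e-08), below the fold change threshold of 1. MYC stayed higher with library size alone (0.38, adjusted p = 6.35e-06 from edgeR).

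The paralogs of MYC were scarce. MYCL (chromosome 1, 40361096 to 40367687, minus strand), first known from lung cancer, was at 6.08, 5.83 and 4.94 CPM in the untreated and at 4.68, 3.64 and 4.31 CPM in the r-CRMP2 libraries. The MYCL groups did not overlap, but the gap between them was small. The log2 fold change of r-CRMP2 over untreated was -0.41 with a standard error of 0.14 (edgeR, adjusted p = 0.0343), and MYCL lost the threshold with DESeq2 (adjusted p = 0.0702) and in 4 of the 6 fits that each left out 1 library. Without untreated replicate 1 or 2 the adjusted p was 0.108 or 0.0944, and without r-CRMP2 replicate 2 or 3 it was 0.124 or 0.0657. MYCN (chromosome 2, 16080560 to 16087129), the form typical of neuroblastoma, had 1, 1 and 2 counts in the untreated and 0, 3 and 0 counts in the r-CRMP2 libraries, too few for a fold change at this depth. MYC made up 99.46% of the summed TPM of the 3 genes in untreated and 99.75% in r-CRMP2 libraries.

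MAX and MLX are the shared partners of the 2 branches. MAX (chromosome 14, 65472819 to 65569413, minus strand) was at 30.0, 25.67 and 28.6 CPM in the untreated and at 32.7, 33.4 and 29.3 CPM in the r-CRMP2 libraries, and the groups overlapped. Its log2 fold change of r-CRMP2 over untreated was 0.18 with a standard error of 0.09 (edgeR, adjusted p = 0.0775) with TMM and -0.13 (adjusted p = 0.181) with library size alone. It was just past the threshold with RLE size factors (adjusted p = 0.0488 from edgeR), without untreated replicate 1 (adjusted p = 0.0481) and without r-CRMP2 replicate 3 (adjusted p = 0.0405). MLX (chromosome 17, 40719078 to 40725221, plus strand) was at 77.6, 73.2 and 77.5 CPM in the untreated and at 95.3, 95.3 and 88.3 CPM in the r-CRMP2 libraries. Its log2 fold change of r-CRMP2 over untreated was 0.29 with a standard error of 0.05 (edgeR, adjusted p = 0.000685) with TMM, but -0.02 (adjusted p = 0.778) with library size alone. MAX shares 56552 bases of its deposited interval with FNTB and 56555 with CHURC1-FNTB, both on the opposite strand. Their means were 447.3 and 510.5 counts per library against 713 for MAX, and neither passed the threshold. MLX shares 894 bases with PSMC3IP, also on the opposite strand, with a mean of 1112 counts against 2004 for MLX. PSMC3IP was higher too (log2 fold change 0.24, adjusted p = 0.00525 from edgeR). Part of the reads of MAX and MLX is therefore uncertain.

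**Figure D3:**
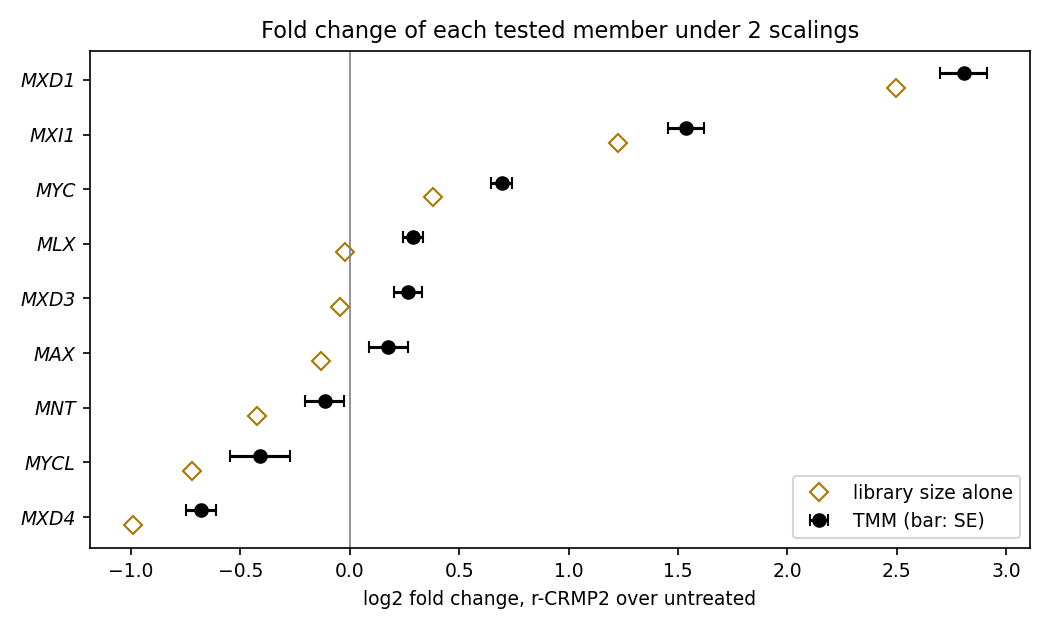
Log2 fold change of each tested member, r-CRMP2 over untreated, with TMM (filled circles, bars give the standard error) and with library size alone (open diamonds). MXD1, MXI1 and MYC lie right of 0 and MXD4, MYCL and MNT left of 0 under both, while MLX, MXD3 and MAX cross 0.

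Levels between genes were compared per length, as TPM. In untreated cells the order was MYC (518 ± 10.95 TPM), MLX (72.4 ± 1.76), MXD3 (65.0 ± 2.01), MXI1 (62.7 ± 3.00), MXD4 (46.5 ± 3.97), MAX (22.5 ± 1.47), MNT (21.8 ± 2.16), MXD1 (4.50 ± 0.367), MYCL (2.76 ± 0.28) and MYCN (0.04 ± 0.016) (SD, n = 3 for each TPM). Neighbours in this order whose ranges overlapped were MXD3 with MXI1, and MAX with MNT. With r-CRMP2, MXI1 stood second with 145 ± 7.32 TPM, and MXD1 stood just above MXD4 with 25.1 ± 1.65 TPM (SD, n = 3), and only MXD1 and MXD4 (23.2 ± 1.45 TPM) overlapped among neighbours. MXD1 thus went from below MAX in every untreated library to above MAX in every r-CRMP2 library.

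Because MAX is the shared partner, each member was also set against MAX within its own library, as a log2 ratio of TPM without a test. MXD1 over MAX was -2.27, -2.32 and -2.38 in untreated replicates 1, 2 and 3 and 0.12, 0.29 and 0.51 in r-CRMP2 replicates 1, 2 and 3. MXI1 over MAX was 1.48, 1.56 and 1.39 and then 2.66, 2.83 and 3.01. MYC over MAX was 4.42, 4.64 and 4.52 and then 4.92, 5.05 and 5.14. All 3 ratios were higher in each r-CRMP2 library, and that of MXD4 was lower, with 0.86, 1.14 and 1.14 against 0.19, 0.12 and 0.26. The ratio of MXD3 to MAX overlapped between the groups. Those of MYCL, MNT and MLX did not, with differences between the group means of -0.60, -0.29 and 0.11. For MLX the gap was slight, with 1.7575 in untreated replicate 2 and 1.7602 in r-CRMP2 replicate 2. The uncertain part of the MAX reads enters every one of these ratios.

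The repressors as a sum and the MYC family as a sum were both larger in r-CRMP2 libraries, as TPM and without a test. TPM carries no TMM correction, so values between libraries in TPM differ from those in CPM. The mean of MXD3, for example, went from 84.3 to 101.4 CPM but from 65.0 to 62.3 TPM. The repressor sum was 200.5 ± 1.75 TPM in untreated and 271.6 ± 4.97 TPM in r-CRMP2 libraries, and the MYC family sum was 520.7 ± 10.7 and 669 ± 5.91 TPM (SD, n = 3 in each group). The log2 ratio of the former to the latter was -1.34, -1.40 and -1.39 in untreated replicates 1, 2 and 3 and -1.30, -1.33 and -1.27 in the r-CRMP2 replicates. The means differed by 0.08, with SDs of 0.03 in each group. The repressor sum was below the MYC family sum in every library. This difference was 0.14 when counts were not divided by gene length and 0.15 when MNT was left out. The repressor sum holds only members of the network, so MGA, a further repressor that pairs with MAX, is not in it. MGA was at 17.95 ± 0.738 TPM in untreated and 10.91 ± 1.44 TPM in r-CRMP2 libraries (SD, n = 3 in each group). Its fall goes against the direction of this difference, so the difference would be smaller than 0.08 with MGA in the sum. A ratio with MGA was not computed, and the 0.08 holds only for the 5 repressors summed here.

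Further genes of the pathway were taken from hand-written lists, and their counts stand beside 28.2% higher and 30.1% lower among all genes tested, with a median log2 fold change of -0.03. The extended network has 3 genes. MGA, a large repressor that pairs with MAX, fell from 88.7 ± 2.37 CPM to 67.4 ± 5.92 CPM (SD, n = 3 in each group, log2 fold change -0.40, adjusted p = 7.83e-05 from edgeR). MLXIP, the partner of MLX, fell from 146 ± 3.16 CPM to 123.7 ± 10.4 CPM (log2 fold change -0.24, adjusted p = 0.00488 from edgeR). MLXIPL was at 2.08 ± 0.303 and 1.52 ± 0.227 CPM (SD, n = 3 in each group) and did not pass (adjusted p = 0.127 from edgeR), though its groups did not overlap. With library size alone MLXIPL was lower (adjusted p = 0.0123 from edgeR).

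Of 30 ribosome biogenesis genes known as MYC-activated, 7 were higher and 15 lower, with a median log2 fold change of -0.20. Among the best known, the nucleolar proteins NPM1 (0.43) and FBL (0.61, the largest rise) were higher, while NCL (-0.23) and NOP56 (-0.66) were lower, as log2 fold changes. The largest fall was in POLR1A (-1.11), the catalytic subunit of RNA polymerase I. With library size alone, 2 were higher and 24 lower. Of 21 nucleotide and polyamine synthesis genes known as MYC-activated, 9 were higher and 9 lower, with a median of -0.03. ODC1 (-0.44), the first enzyme of polyamine synthesis, and CAD (-0.30), which starts pyrimidine synthesis, were lower, and SRM (-0.09) and NME1 (-0.03) did not pass. The spermine synthase SMS had the largest rise (0.88) and UMPS, which completes UMP synthesis, the largest fall (-1.08). With library size alone, 4 of the 21 were higher.

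Of 13 genes known to be repressed by MYC, 7 were higher and 5 lower, with a median log2 fold change of 0.35. The cell cycle inhibitors CDKN1A (0.99) and CDKN1C (1.33) and the stress gene GADD45A (0.77) were higher, and CDKN2B (0.26) did not pass. The largest rise was in NDRG1 (2.11), from 1782 ± 282 CPM to a mean of 7672 ± 506.5 CPM (SD, n = 3 in each group), and the largest fall in CEBPA (-1.96), a differentiation factor. NDRG1 is also a known HIF-1 target. Both directions thus held genes of this list that passed beyond a log2 fold change of 1, with 3 of 13 in each. Among all genes tested the shares by that rule were 5.12% higher and 8.86% lower. Named after their values were seen, KLF6 (1.20) rose besides CDKN1C and NDRG1, and GAS1 (-1.18) and NDRG2 (-1.01) fell besides CEBPA.

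Of 22 genes that control the turnover of MYC protein, 9 were higher and 5 lower, with a median of -0.01. The 3 with a log2 fold change above 1, against 5.12% of all genes tested, were the PIM kinases, known to phosphorylate and stabilise MYC. PIM1, the largest rise, averaged 47.5 ± 2.77 CPM untreated and 325.6 ± 53.9 CPM with r-CRMP2 (SD, n = 3 in each group, log2 fold change 2.78, adjusted p = 7.62e-14 from edgeR). PIM3 (1.87) and PIM2 (1.16), named after their values were seen, rose as well. Of the ubiquitin ligases that act on MYC, FBXW7 (-0.11) and HUWE1 (-0.16) did not pass, SKP2 (-0.28) was lower and BTRC (-1.25) had the largest fall, while the kinase GSK3B, which marks MYC for FBXW7, was lower too (-0.24). With library size alone, 5 of the 22 were higher and 12 lower. MYC protein was not measured here.

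Cofactors of both arms were listed as well. Of 17 MYC coactivators and partners, 3 were higher and 5 lower, with a median of -0.05, and TRRAP (-0.08) and KAT5 (0.16) did not pass. KAT2A (0.19) was higher and EP400 (-0.29) lower, and the largest changes were in ZBTB17 (0.59), which encodes the MYC partner MIZ1, and BPTF (-0.60). ZBTB17 is in the list as a partner, so its rise is not read as that of a coactivator. With RLE size factors 5 were higher, and with library size alone, upper quartile scaling, no filter on low counts or without untreated replicate 3 it was 1. With library size alone 13 were lower. Of 17 genes of the SIN3 corepressor complexes that MXD proteins recruit, 9 were higher and 4 lower, with a median of 0.18. The scaffolds SIN3A (-0.10) and SIN3B (-0.01) did not pass, and the deacetylases HDAC1 (0.21) and HDAC2 (0.36) were higher. ING2 (1.20), a reader of methylated histone H3, had the largest rise and BRMS1L (-1.34) the largest fall. With library size alone 3 were higher and 7 lower, and without r-CRMP2 replicate 2 the lower genes numbered 2.

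**Figure D4:**
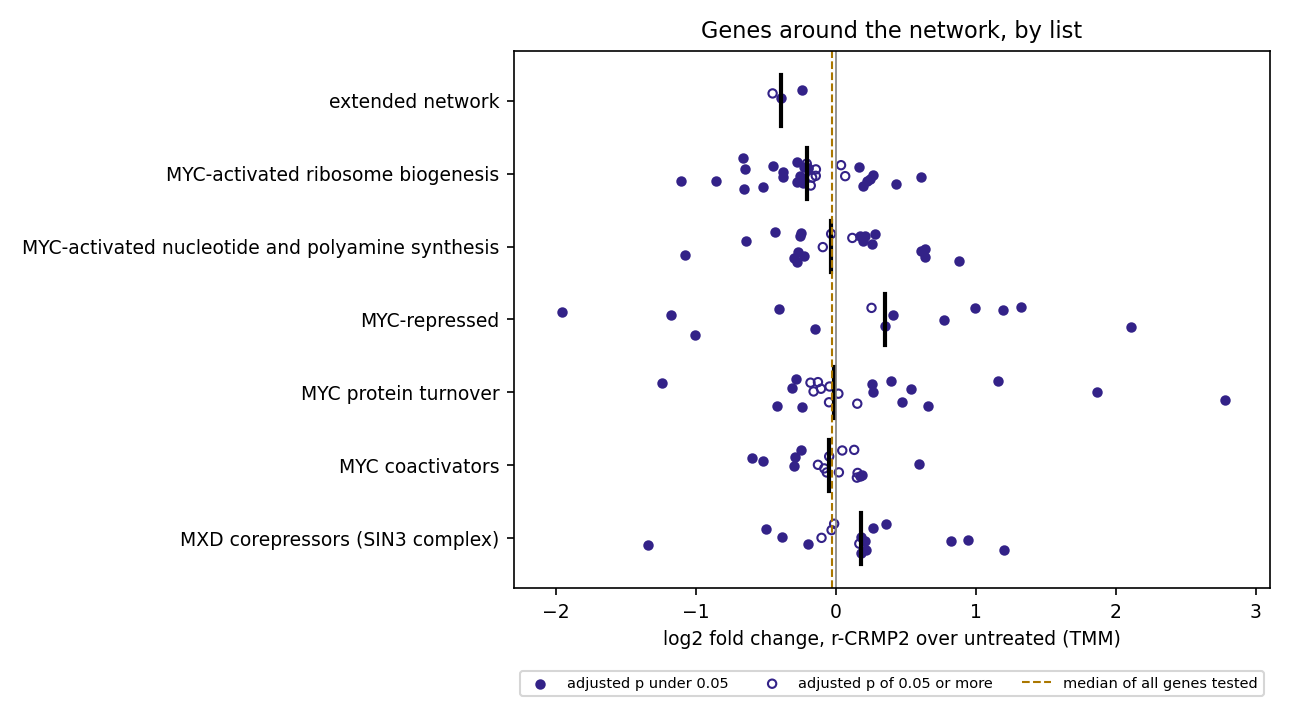
Log2 fold change (TMM), r-CRMP2 over untreated, of each gene in 7 lists around the network; filled points passed an adjusted p of 0.05, open points did not, black bars are list medians and the dashed line is the median of all genes tested. PIM1 at 2.78 and NDRG1 at 2.11 lie farthest right, and CEBPA at -1.96 lies farthest left.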

How the data were processed

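Poly(A) RNA-seq libraries of the A2780 line were grouped by the treatment in the labels, with 3 per group. Per the labels, the authors deposited raw counts per gene, and the submitters' processing notes name FastQC, HISAT2, DESeq2 and the build hg19. The counting tool, the annotation and the use of strand are not given in the sources used here. The deposited TPM values follow from the counts and gene lengths (largest difference 4.72e-06), and were used without a test for levels between genes, for sums over members in each library, and for shares and ratios within a library. Each library had between 21888530 and 25711353 counts, and counts of a few reads carry counting error that no replicate removes.

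In R 4.3.3, genes with low counts were removed (filterByExpr), library sizes were corrected by TMM, and a quasi-likelihood model was fitted in edgeR (version 4.0.16, with limma 3.58.1). P-values were adjusted by Benjamini-Hochberg over 16222 genes, with a threshold of 0.05. Standard errors come from log2 CPM with a prior count of 2. The code was tested on simulated data. Within a group, no pair of libraries was as alike as sampling noise alone would make it (chi-square per degree of freedom, 3.86 to 11.3). Alternatives were DESeq2 (1.42.0), other scalings, other filters, a replicate block and leaving out each library. The network and the lists were chosen with earlier results of these data known. Named genes were the members, MGA, MLXIP and MLXIPL, the first 4 genes of each list as written, and the largest rise and fall in each list among genes that passed. Promoter windows are from RefSeq (GRCh38.p14), a build other than that of the deposited coordinates.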

Additional observations from a re-analysis of the deposited data

How the results depend on the processing

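The log2 fold changes of MXD1, MXI1, MYC and MXD4 kept their direction and passed the adjusted p-value threshold in all 13 alternative fits. With library size alone, 3 directions reversed: MAX became -0.13, MLX -0.022 and MXD3 -0.045, and 3 members were higher in place of 5. With the threshold on fold change added, 2 members were higher and 0 lower. The count of 2 lower members became 1 with DESeq2, and ranged from 1 to 2 when single libraries were omitted, through MYCL. With library size alone the lower members were 3, with MNT added. In each fit that left out a library, 1 group had 2 libraries. The difference in the balance of summed repressors and summed MYC family (0.08) was 0.14 with counts not divided by gene length and 0.15 without MNT. No alternative added MGA, a repressor that fell, to the sum, and its addition would make this difference smaller. With the replicate block, 5 members were higher and 2 lower, as without it, and it changed no call of a member. The deviations of same-numbered libraries had correlations between -0.025 and 0.004 across genes, so the numbers gave no pairing. The cause of these changes was not tested, apart from the shift that the scaling itself makes. Depth limits MYCN, with at most 3 counts in a library.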
